A study of Homo sapiens with 8 samples.

Results

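The complement system was followed through 8 genes: the components C3, CFB and C1S, the soluble regulators SERPING1 and CFI, and the membrane regulators CD46, CD55 and CD59. A gene was represented by the probe set whose only symbol in the array annotation was that gene, which gave 1 probe set for each of the 8 genes, out of 22395 genes named in this way. RNA was measured on 8 whole-transcript arrays of U-CH1 and MUG-Chor1, established human cell lines from chordoma, an uncommon malignant tumour of the axial skeleton. Each line had 3 control arrays of untreated monolayers, called U-CH1 ctrl 1 to 3 and MUG-Chor1 ctrl 1 to 3 in the labels. Each line also had 1 array of cells that had received 10 ng/mL recombinant human TNF-α for 1 week, in 3 additions a week. All cells grew on a gelatin coating in a mix of IMDM and RPMI with serum, and each line is a single line from 1 tumour. Whether the controls were grown as separate cultures is not in the labels; the p-values reflect the spread among these arrays, which may be technical. All values are RMA values taken as log2, although the sources used here state no log base, and a log2 difference of 1 is a 2-fold difference.

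Complement is a cascade of serum proteins, most of them made in the liver, that many other cells also produce locally when exposed to inflammatory cytokines. C1S, a serine protease of the C1 complex, starts the classical pathway, and factor B, the CFB product, supplies the protease of the alternative pathway C3 convertase. Both routes cleave C3, the central component, whose fragments coat the target and lead to the membrane attack complex. Host cells are protected by C1 inhibitor (SERPING1), by the C3b-cleaving protease factor I (CFI) with its membrane cofactor CD46, by CD55, which accelerates convertase decay, and by CD59, which blocks assembly of the membrane attack complex.

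Median brightness was similar on all arrays, between 2.52 and 2.63. The chordoma marker gene TBXT read 9.14 to 9.75 on the 6 controls, while the leukocyte marker PTPRC read 0.93 to 1.23 on all 8 arrays. Leukocyte markers were not uniformly low. Of the 8 with a probe set, 3 lay at or below the median of all deposited values on every array, PTPRC among them. CD68, also a lysosome gene, read 7.67 to 9.17, CSF1R 3.01 to 3.67 and TYROBP 2.68 to 3.75. The liver marker ALB read 2.08 to 2.60, near or below 2.57, the median of all deposited values. Of the 4 hepatocyte markers tested 1 rose in U-CH1, the protease inhibitor gene SERPINA1, at 4.23 with TNF against 2.69 to 3.07 on the controls (log2 1.34, limma adjusted p = 0.0421); that call held without MUG-Chor1 control 3 and ended without any other control (adjusted p from 0.0550 to 0.0976). Summed levels on the U-CH1 TNF array and its controls were 17.3 and 15.3 to 16.3 for 6 hepatocyte markers; in MUG-Chor1 they were 14.4 and 13.5 to 14.1. Those of the 4 endothelial markers with a probe set lay inside the control range in U-CH1, and in MUG-Chor1 they were 11.8 and 14.6 to 15.4, with 1 of the 4 lower, the VEGF receptor gene KDR (log2 -2.37, limma adjusted p = 0.0121). TNFAIP3, a target of TNF signalling, read 4.65 to 5.58 on the controls and 8.44 and 8.03 on the U-CH1 and MUG-Chor1 TNF arrays. ICAM1 read 6.04 with TNF against 2.85 to 3.35 in U-CH1, and 8.83 against 4.24 to 6.75 in MUG-Chor1. IRF1 read 7.10 with TNF against 5.48 to 6.58 in U-CH1. In MUG-Chor1 IRF1 read 6.50 with TNF, inside the control range of 6.29 to 7.21. In limma ICAM1 did not pass in U-CH1, and IRF1 passed in neither line. For some complement genes MUG-Chor1 control 3 lay far from the other MUG-Chor1 controls, and results that rest on it are given with and without it. The MUG-Chor1 TNF array also differed from its controls in marker lists. The summed level (sum of log2 values) of 7 chordoma markers was 40.0 on it against 55.3 to 57.2 on its 3 controls, and that of the 6 fibroblast markers with a probe set was 29.4 against 19.1 to 23.2; there 5 of the 7 chordoma markers fell and 3 of the 6 fibroblast markers rose (limma adjusted p under 0.05). In U-CH1 these sums were 53.2 against 55.6 to 58.7 and 24.2 against 22.5 to 24.8. The part of these shifts in the complement values was not tested, and fewer cells of a kind and less RNA per cell cannot be told apart.

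**Figure D1:**
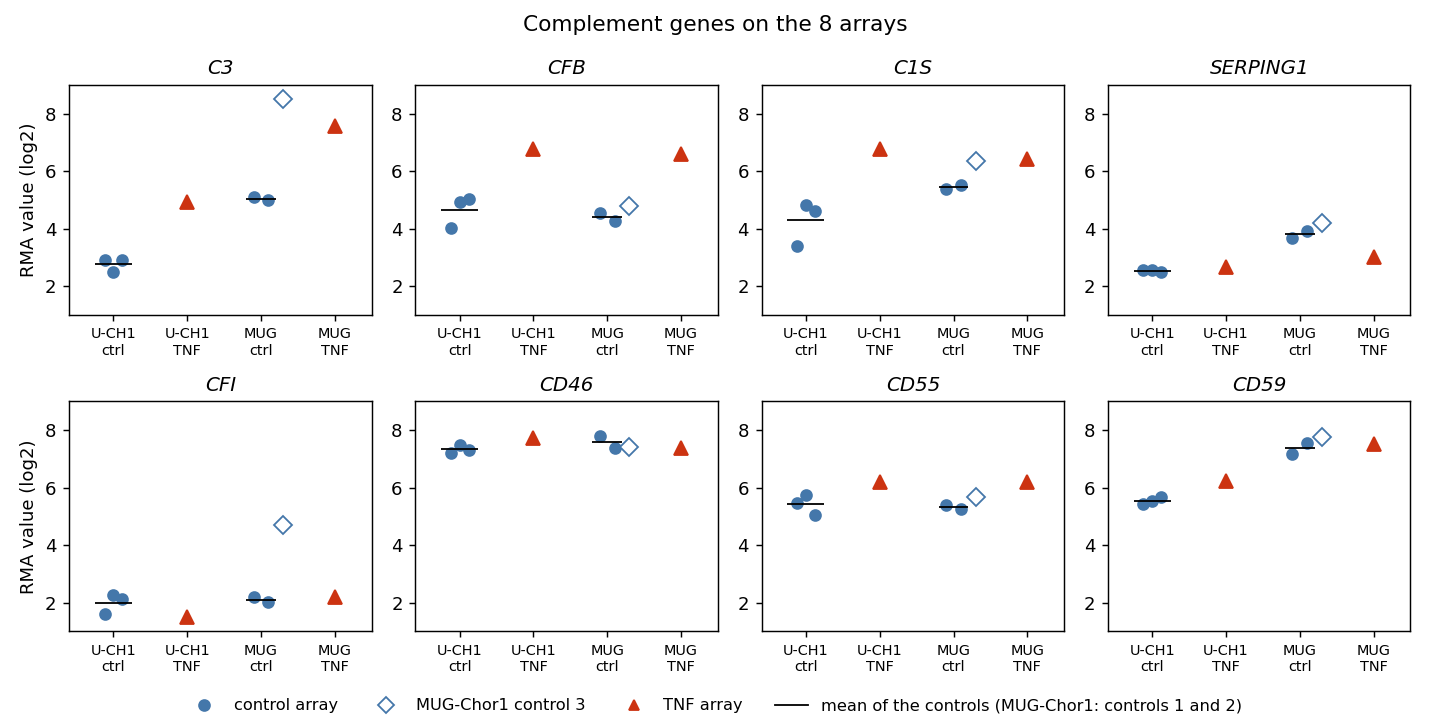
RMA values (log2, vertical axis) of the 8 complement genes on each array, by cell line and treatment (horizontal axis). Circles are control arrays, the open diamond is MUG-Chor1 control 3, triangles are TNF arrays, and black lines are control means (in MUG-Chor1 over controls 1 and 2). CFB is raised on both TNF arrays, and C3 and CFI are highest on MUG-Chor1 control 3, at 8.52 and 4.70.

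Of the 8 genes, CFB alone passed the test for a rise with TNF with all 8 arrays in the fit. It read 4.03, 4.92 and 5.02 on the U-CH1 controls and 6.76 on the U-CH1 TNF array. In MUG-Chor1 it read 4.54, 4.27 and 4.78 on the controls and 6.61 with TNF. Both TNF arrays lay above every control of either line, and MUG-Chor1 control 3 lay within the range of the U-CH1 controls. Across both lines CFB rose 4.25-fold (log2 difference 2.09 ± 0.27, SE; limma, two-sided, adjusted p = 0.00335), and it was 1 of 8 complement genes called, where 2.48% of the 16986 genes tested were called. In U-CH1 it rose 4.29-fold (log2 2.10 ± 0.39, SE; adjusted p = 0.0309) as 1 of 8 genes, against a background of 1.27%. In MUG-Chor1 it rose 4.22-fold (log2 2.08 ± 0.39, SE; adjusted p = 0.0176), again as 1 of 8, against 2.88%. The difference of the rises between the lines was -0.03 (95% interval -1.25 to 1.20). The U-CH1 call ended without U-CH1 control 2 (adjusted p = 0.0635) or MUG-Chor1 control 1 (adjusted p = 0.0661), and the MUG-Chor1 call ended without MUG-Chor1 control 1 (adjusted p = 0.0547), with rises of 2.08 to 2.23.

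RefSeq promoter windows were matched by symbol for 5 of the 8 genes (CFB, CFI, CD46, CD55 and CD59), and those of C3, C1S and SERPING1 are not analysed here. The windows of CFB and CD55, the listed genes with a window whose TNF array lay above the controls in both lines, are shown as the 250 bases before the annotated start, with matches to 5 motifs in capitals. Motifs were searched on both strands as GGG and TTCC with any 3 bases between them (NF-kB-like), GAAA and GAAA with any 2 bases between them (ISRE-like, after the interferon-stimulated response element), TTCNNNGAA (GAS-like, bound by STAT factors), TGANTCA (AP-1-like) and TTGCNNAA (C/EBP-like). The CFB window is chr6:31945845-31946094 and the CD55 window chr1:207321428-207321677 (GRCh38.p14, both on the plus strand).
CFB: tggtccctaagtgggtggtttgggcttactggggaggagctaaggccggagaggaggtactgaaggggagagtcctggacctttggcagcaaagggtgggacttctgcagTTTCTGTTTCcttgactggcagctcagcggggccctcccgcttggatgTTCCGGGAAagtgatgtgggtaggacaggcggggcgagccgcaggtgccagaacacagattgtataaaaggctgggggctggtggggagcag
CD55: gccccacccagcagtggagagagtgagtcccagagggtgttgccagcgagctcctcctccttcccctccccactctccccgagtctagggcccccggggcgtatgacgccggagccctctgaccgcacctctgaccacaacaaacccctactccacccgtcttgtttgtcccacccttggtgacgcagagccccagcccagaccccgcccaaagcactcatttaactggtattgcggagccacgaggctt
The capitals in CFB are 1 ISRE-like match on the minus strand, 140 to 131 bases before the start, and 1 GAS-like match, which reads alike on both strands, 92 to 84 bases before it; the matches do not overlap. The CD55 window held none of the 5 motifs, and neither did the windows of CFI and CD46. The 4 windows of CD59 held GAS-like, AP-1-like and C/EBP-like matches between them, and CD59 did not pass the test with TNF. A link between matches and the TNF differences was not tested. Of all 35116 promoter windows of this length, 3.02% held the ISRE-like motif, 6.57% the GAS-like, 5.67% the NF-kB-like, 6.57% the AP-1-like and 9.05% the C/EBP-like motif. A match describes the letters only, and binding was not measured.

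C3 depended on a single control array. In U-CH1 it read 2.91, 2.48 and 2.91 on the controls and 4.94 with TNF, so that the treated array lay 2.17 above a control mean of 2.76 ± 0.25 (SD, n = 3). In MUG-Chor1 it read 5.10 and 4.99 on controls 1 and 2, 8.52 on control 3 and 7.57 with TNF. The TNF array was 5.78-fold above the mean of controls 1 and 2, and control 3 was 11.1-fold above it and 0.94 (log2) above the TNF array itself. The treated U-CH1 array, at 4.94, lay just below MUG-Chor1 controls 1 and 2. With all 8 arrays C3 did not pass across both lines (log2 1.77 ± 0.74, SE; limma adjusted p = 0.278), in U-CH1 (2.17 ± 1.05, SE; adjusted p = 0.498) or in MUG-Chor1 (1.37 ± 1.05, SE; adjusted p = 0.705). In the fits within each line the residual spread comes from the 6 controls of both lines, so control 3 also entered the error of the U-CH1 comparison.

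Without MUG-Chor1 control 3, C3 rose in both lines. The rise was 4.51-fold in U-CH1 (log2 2.17 ± 0.29, SE; limma adjusted p = 0.00354), 5.78-fold in MUG-Chor1 (log2 2.53 ± 0.30, SE; adjusted p = 0.00100) and 5.07-fold across both lines (log2 2.34 ± 0.21, SE; adjusted p = 0.000358). The difference between the lines was then 0.36 (95% interval -0.56 to 1.28), where it had been -0.80 (95% interval -4.09 to 2.49) with all arrays. C3 and CFB were the 2 genes of the 8 called across both lines without control 3, against 2.58% of all genes tested, and also in MUG-Chor1, against 3.91%; in U-CH1 they were joined by C1S, 3 of 8 against 1.94%. The array was singled out with its C3 value known, so these calls are conditional on that choice.

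**Figure D2:**
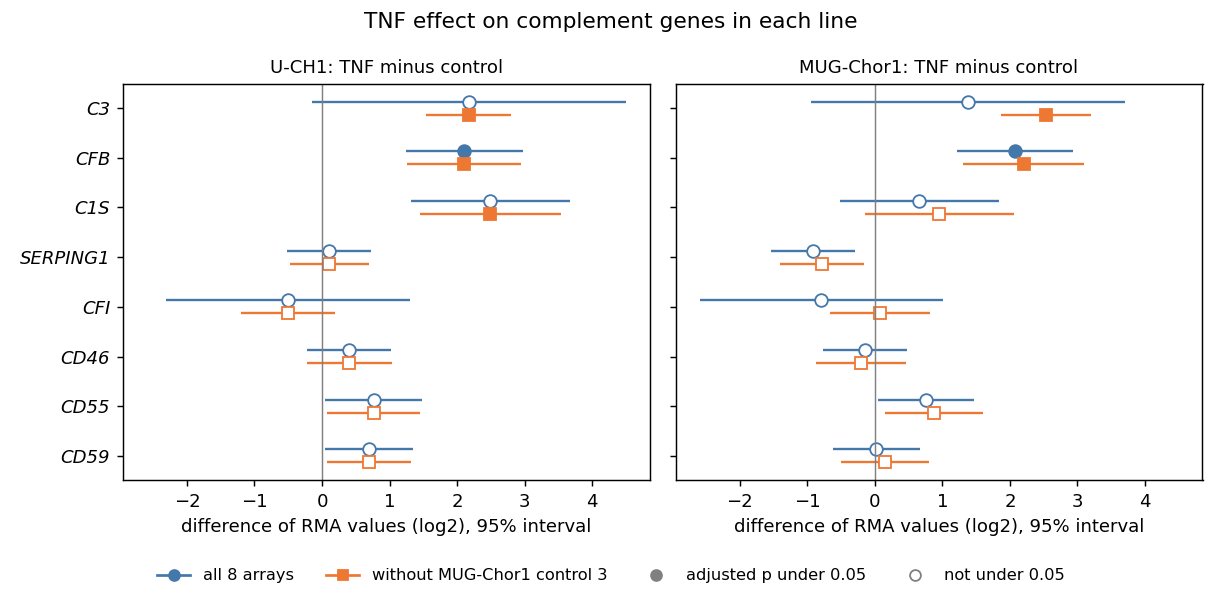
TNF array minus control mean (log2 difference, horizontal axis, with 95% intervals from limma) for the 8 complement genes in U-CH1 (left) and MUG-Chor1 (right), with all 8 arrays (circles) and without MUG-Chor1 control 3 (squares). Filled symbols passed an adjusted p under 0.05. CFB is filled in all 4 fits, and C3 only in the fits without control 3, where its intervals narrow.

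C1S had its largest value with TNF in U-CH1. The U-CH1 controls read 3.39, 4.84 and 4.63, with control 1 the lowest, and the TNF array 6.78. MUG-Chor1 controls read 5.39 and 5.51, control 3 read 6.34 and the TNF array 6.41, so the treated array exceeded control 3 by only 0.07. The U-CH1 difference was 5.63-fold but missed the threshold (log2 2.49 ± 0.53, SE; limma adjusted p = 0.0547); without MUG-Chor1 control 3 the same difference passed (adjusted p = 0.0242). In MUG-Chor1 the difference was 0.66 (95% interval -0.52 to 1.84; adjusted p = 0.731), and 0.95 without control 3 (adjusted p = 0.439). The effect in MUG-Chor1 was 1.83 lower than that in U-CH1 as fitted (difference -1.83, 95% interval -3.50 to -0.17), which did not pass over all genes (adjusted p = 0.585).

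Neither soluble regulator passed the test with TNF. SERPING1 read 2.56, 2.58 and 2.49 on the U-CH1 controls and 2.65 with TNF, all near the median of all deposited values. In MUG-Chor1 it read 3.66, 3.93 and 4.19 on the controls and 3.02 with TNF, below all 3 controls. The MUG-Chor1 difference was -0.91 (95% interval -1.54 to -0.29; limma adjusted p = 0.148), and the U-CH1 difference 0.11 (95% interval -0.51 to 0.73; adjusted p = 0.958). The difference between the lines was -1.02 (adjusted p = 0.522).

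CFI was seen above the median of all values on 1 array alone. It read 1.59, 2.26 and 2.13 on the U-CH1 controls, 1.49 on the U-CH1 TNF array, 2.20 and 2.02 on MUG-Chor1 controls 1 and 2 and 2.18 on the MUG-Chor1 TNF array. MUG-Chor1 control 3 read 4.70, which was 6.03-fold above the mean of controls 1 and 2. CFI entered the test through that array only, and the other 7 genes passed the filter without it. Its TNF difference in MUG-Chor1 was -0.79 with all arrays (adjusted p = 0.818) and 0.08 without control 3 (limma adjusted p = 0.961).

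No membrane regulator passed the test with TNF, and CD55 had the smallest p of the 3 across both lines. CD55 read 5.48, 5.73 and 5.05 on the U-CH1 controls and 6.18 with TNF, and 5.39, 5.25 and 5.67 on the MUG-Chor1 controls and 6.19 with TNF. Both treated arrays lay above all 3 controls of their line, as for CFB and C1S, which made 3 of the 8 genes where 15% of all genes tested did so. The difference was 0.76 ± 0.22 (SE) across both lines, 1.69-fold, and did not pass (limma adjusted p = 0.104); it was 0.76 in each line, with 95% intervals of 0.05 to 1.47 in both. CD59 read 5.43, 5.53 and 5.68 on the U-CH1 controls and 6.24 with TNF, a difference of 0.70 (95% interval 0.05 to 1.35; adjusted p = 0.414). In MUG-Chor1 CD59 read 7.18, 7.55 and 7.76 on the controls and 7.52 with TNF, inside the control range (difference 0.02, 95% interval -0.63 to 0.67). CD46 varied least of the 8 genes over the arrays, by 0.59 from lowest to highest. It read 7.19, 7.49 and 7.32 on the U-CH1 controls and 7.73 with TNF, and 7.78, 7.40 and 7.42 on the MUG-Chor1 controls and 7.39 with TNF. The CD46 difference was 0.13 across both lines (95% interval -0.33 to 0.58; adjusted p = 0.830).

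For the difference of the TNF effects between the lines, 0 of the 8 genes passed in limma, against 0.53% of all genes tested; C1S and SERPING1 were the 2 with an unadjusted p under 0.05 (7.36% of all genes tested), both lower in MUG-Chor1 than in U-CH1. The 8 genes had a median TNF difference of 0.73 in U-CH1 cells and 0.34 in MUG-Chor1 cells, where the medians of all genes tested were 0.04 and 0.06. For the 24 other complement genes tested, described below, the medians were 0.04 and -0.04. The 8 genes were chosen with earlier results of these data known. Their medians, and the counts of the 8 given above and below, therefore describe these genes only and are not read as a result about complement. The U-CH1 TNF array lay above all 3 controls for 7 of the 8 genes (30.8% of all genes tested) and the MUG-Chor1 TNF array for 3 of the 8 (35.3%). Without MUG-Chor1 control 3 the MUG-Chor1 median of the 8 was 0.51 (0.07 over all genes tested), and 4 of the 8 lay above controls 1 and 2, as did 45.2% of all genes tested.

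MUG-Chor1 control 3 was higher than both other MUG-Chor1 controls for 7 of the 8 genes, CD46 being the exception, where 38.4% of all genes tested were. For C3 and CFI it was at least 1 above both, as for 2.09% of all genes tested. CFI passed the filter only through this array and C3 was singled out for its value on it. Both are among the 7 genes as well, so nothing is read from either count or its share. C3 had the second largest such excess of the 16986 genes, 3.42 above the higher of controls 1 and 2, after the chemokine gene CXCL14 at 4.23, and the excess of CFI was 2.50. This order describes 1 array and was looked up after its values had been seen. The adhesion gene ICAM1, a TNF target, read 6.75 on control 3 against 4.55 and 4.24 on controls 1 and 2 and 8.83 on the TNF array. TNFAIP3 read 5.58 against 4.65 and 5.36, with 8.03 on the TNF array. IRF1, an interferon regulatory factor gene, read 7.08 against 6.29 and 7.21, with 6.50 on the TNF array. Of the 43 other complement genes with a probe set, 0 were at least 1 above both on this array. The summed level of leukocyte markers was 25.1 on control 3 and 23.7 to 23.8 on controls 1 and 2. LYZ read 3.08 against 2.31 and 2.01, CD14 3.03 against 2.67 and 2.43, and CSF1R 3.67 against 3.53 and 3.24. CD68 read 8.02 against 8.24 and 8.25, TYROBP 2.68 against 2.73 and 2.70, and PTPRC 1.03 against 1.04 and 1.19. The summed level of fibroblast markers was 19.1 against 22.5 to 23.2. LUM, which encodes the matrix proteoglycan lumican, read 5.99 against 7.54 and 7.45, and the collagen gene COL1A1 3.65 against 4.92 and 4.89. The sum of chordoma markers was 57.2 against 55.3 to 56.3. The part of these shifts in the C3 and CFI values was not tested.

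**Figure D3:**
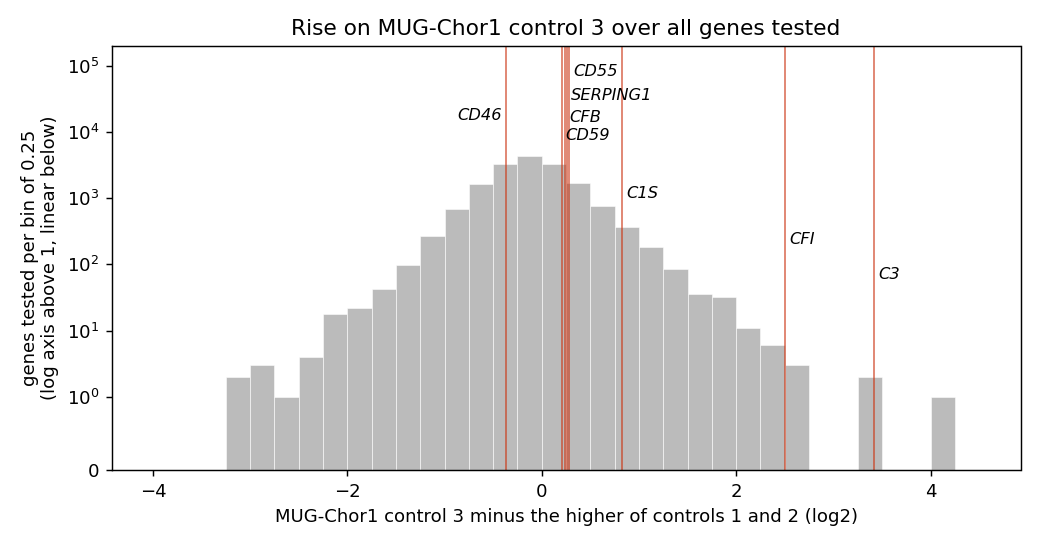
Number of genes tested (vertical axis, log scale above 1) by the value on MUG-Chor1 control 3 minus the higher of controls 1 and 2 (log2, horizontal axis). Red lines mark the 8 complement genes. C3 at 3.42 and CFI at 2.50 lie in the far right tail, and the other 6 lie between -0.37 and 0.83.

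Untreated cells of the lines were compared to ask which complement genes already differed without TNF. Of the 8 genes, 4 were higher in MUG-Chor1, none was lower and 4 did not pass, where 18.9% of all genes tested were called, 10.3% as higher. CD59 was 3.87-fold higher (log2 1.95 ± 0.21, SE; limma adjusted p = 0.000133), SERPING1 2.62-fold (adjusted p = 0.000873), C1S 2.76-fold (adjusted p = 0.0214) and C3 10.8-fold (log2 3.44 ± 0.74, SE; adjusted p = 0.00913). Without MUG-Chor1 control 3 the C3 difference was 4.86-fold (log2 2.28 ± 0.23, SE; adjusted p = 7.49e-05), while without MUG-Chor1 control 2 it was 4.04 (log2). C1S lost its call without MUG-Chor1 control 3 (log2 1.17, adjusted p = 0.0528) or without U-CH1 control 1 (log2 1.01, adjusted p = 0.0614). The other 3 kept theirs without control 3, where 18.2% of all genes tested were called. For C3, CD59 and SERPING1 every MUG-Chor1 array, treated or not, lay above every U-CH1 array, as for 12.2% of all genes tested. CFB, CD46 and CD55 differed by -0.12, 0.20 and 0.02, with 95% intervals of -0.74 to 0.49, -0.24 to 0.64 and -0.49 to 0.52. CFI differed by 0.98 with control 3 and by 0.12 without it.

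**Figure D4:**
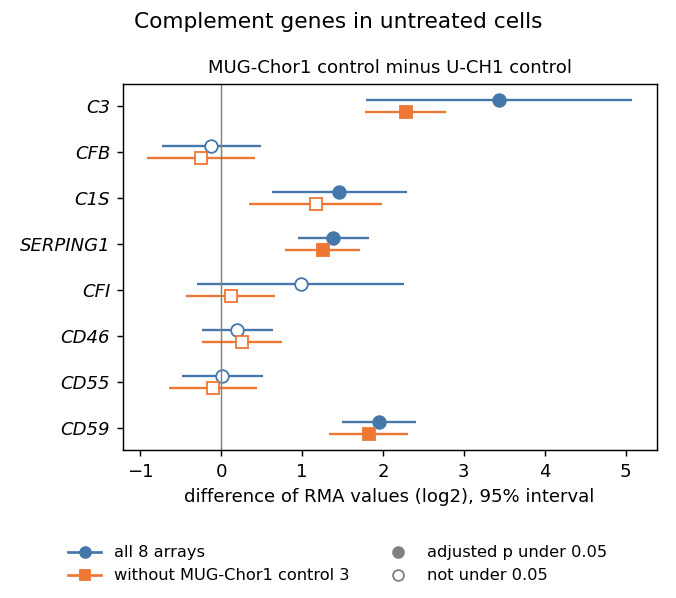
MUG-Chor1 control mean minus U-CH1 control mean (log2 difference, horizontal axis, with 95% intervals from limma) for the 8 complement genes, with all 8 arrays (circles) and without MUG-Chor1 control 3 (squares). Filled symbols passed an adjusted p under 0.05. C3, CD59 and SERPING1 are filled in both fits, at 3.44, 1.95 and 1.39 with all arrays.

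Other genes of the cascade were counted from a list. Of 52 other complement genes listed, 43 had a probe set of their own, and 24 of these rose above the median of all values on at least 1 array and were tested; C1R, C2, C4A, C4B and VTN were among those not analysed here. Across both lines 1 of the 24 was called, where 2.48% of all genes tested were, so the count says nothing particular about them. The 1 gene was ITGAM, the alpha chain of complement receptor 3, which rose 1.77-fold (log2 0.83 ± 0.18, SE; limma adjusted p = 0.0448). That call ended without any single array other than MUG-Chor1 control 3 (adjusted p from 0.0614 to 0.298). ITGAM read 2.36 to 2.70 on the U-CH1 controls and 3.54 with TNF, and 2.10 to 2.21 on the MUG-Chor1 controls and 2.81 with TNF. It is also a gene of leukocytes. The summed level of the 8 leukocyte markers with a probe set was 26.1 on the U-CH1 TNF array against 23.2 to 23.5 on its controls, and 24.6 in MUG-Chor1 against 23.7 to 25.1. Of the 5 that were tested 1 rose across both lines, the macrophage and lysosome gene CD68 (log2 0.84, limma adjusted p = 0.0485). CD68 passed in neither line alone (adjusted p = 0.383 and 0.102), and its call ended without any single array other than U-CH1 control 3 (adjusted p = 0.0640 without MUG-Chor1 control 3, and from 0.0640 to 0.383 over these arrays). On the U-CH1 TNF array CD14 read 3.45 against 2.49 to 2.86 on the controls, and TYROBP 3.75 against 2.81 to 3.11. CD68 read 8.48 there against 7.67 to 8.05 and CSF1R 3.59 against 3.15 to 3.43, while LYZ lay inside its control range. In MUG-Chor1 CD68 read 9.17 against 8.02 to 8.25 and TYROBP 3.08 against 2.68 to 2.73. CSF1R read 3.01 against 3.24 to 3.67. PTPRC read 0.93 and 1.14 on the TNF arrays. The part of leukocyte genes in the ITGAM rise was not tested. Within U-CH1 and within MUG-Chor1 0 of the 24 passed in limma, where 1.27% and 2.88% of all genes tested did. At a limma unadjusted p under 0.05, 2 were higher and 0 lower in U-CH1, and 1 higher and 2 lower in MUG-Chor1. The share of all genes at that unadjusted threshold is not given here, so nothing is read from these counts. The median difference of the 24 was -0.04 across both lines, where all genes tested had 0.05. All 4 probe sets of C6, C7, C8B and C9, components of the membrane attack complex, lay at or below the median of all values on every array, where a level cannot be told from background without detection calls. Between the untreated lines 2 of the 24 were higher in MUG-Chor1 and 4 lower, where 10.3% of all genes tested were higher and 8.57% lower, and nothing particular to the list is read from these counts. ITGB2, the integrin chain that pairs with ITGAM, was 2.34-fold higher and C5 1.82-fold higher (adjusted p = 0.00652 and 0.0259). The largest of the lower genes were C1QBP, which encodes a C1q-binding protein, at -1.50, the anaphylatoxin receptor gene C5AR1 at -0.93 and the lectin pathway protease gene MASP1 at -0.85 (adjusted p = 0.00101, 0.0115 and 0.0131). The remaining one was CLU, which encodes clusterin, an inhibitor of the membrane attack complex, at -0.70 (limma adjusted p = 0.0302). The CLU call ended without any 1 of the 6 controls (adjusted p from 0.0533 to 0.0869). The C5 call ended without control 1 or 3 of either line (adjusted p from 0.0616 to 0.0931), that of C5AR1 without MUG-Chor1 control 1 (0.0528) and that of MASP1 without MUG-Chor1 control 2 or U-CH1 control 1 (adjusted p = 0.0633 and 0.0517).

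The genes with the most similar profile over the 8 arrays were looked up among 8812 genes that varied by at least 1 (log2). The arrays share lines and treatment, so these correlations are descriptions. Each gene was picked on these same values, so its readings on the TNF arrays or on control 3 add no separate support. CFB was most like SLC41A2, ISCU and CTSS (Pearson r = 0.981, 0.981 and 0.976; 0.985, 0.982 and 0.978 without MUG-Chor1 control 3). CTSS, which encodes the protease cathepsin S, read 4.02 to 5.32 on the 6 controls and 7.98 and 7.90 on the TNF arrays. C3 was most like LOC729291, PLAGL1 and DET1 (r = 0.987, 0.985 and 0.982; 0.979, 0.976 and 0.981 without control 3). PLAGL1, a zinc finger gene, read 5.48 on control 3 against 3.56 and 3.48 on controls 1 and 2, in keeping with its choice by likeness to C3. SERPING1 was most like EPSTI1, DMD and CXCL6 (r = 0.991, 0.990 and 0.988; 0.988, 0.985 and 0.995 without control 3). C1S was most like GBP4, AHCYL1 and IP6K1 (r = 0.971, 0.963 and 0.963; 0.970, 0.973 and 0.961 without control 3). GBP4, a guanylate-binding protein gene that interferon induces, read 2.33 to 3.90 on the U-CH1 controls and 7.24 with TNF, and 4.97, 5.10, 6.67 and 5.99 on MUG-Chor1 controls 1, 2 and 3 and the TNF array.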

How the data were processed

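The authors deposited a table of RMA values for 53617 probe sets on each array; their log base is not stated, and the deposited values were taken as log2. It was made with RMA and Transcriptome Analysis Console (no version stated), per the submitters' processing notes. RMA usually gives all arrays one distribution and would hide a shift common to all genes; detection calls were not used here. Probe sets were named through the platform annotation (23871 with 1 symbol, 1842 with several, 27904 not listed); of the former, 22569 had an Entrez number found in RefSeq (GRCh38.p14), and 90 symbols were updated from it. The brightest probe set stood for a gene, and genes above 2.57, the median of all values, on at least 1 array were tested (16986).

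Tests used limma 3.58.1 in R 4.3.3, two-sided, with Benjamini-Hochberg adjustment over all genes tested and a threshold of 0.05. For TNF across both lines the model had line and TNF as additive terms (5 residual degrees of freedom), and the other comparisons from 4 group means (4 residual degrees of freedom), where each single TNF array is assumed to vary like the 6 controls. The scripts were tested on simulated data. Named genes were the 8 members, the 4 largest called genes of a complement list per comparison, TNFAIP3, ICAM1 and IRF1, cell type markers, and the 3 genes most like each of C3, CFB, SERPING1 and C1S. Members and lists were chosen with earlier results of these data known. CXCL14, MASP1 and CLU were named after their values were seen. Alternatives covered the filter, probe set choice, normalization, variance model, array weights, threshold, model, a replicate block and leaving out arrays. The number of arrays limits the precision.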

Additional observations from a re-analysis of the deposited data

Results flagged for a closer look

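For SERPING1 the TNF array lay above all U-CH1 controls (2.65 against 2.49 to 2.58) and below all MUG-Chor1 controls (3.02 against 3.66 to 4.19). The fitted difference of the TNF effects was -1.02 (limma adjusted p = 0.522, unadjusted p = 0.0269), which did not pass.

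CD46 also lay on opposite sides, with 7.73 against 7.19 to 7.49 in U-CH1 and 7.39 against 7.40 to 7.78 in MUG-Chor1. The MUG-Chor1 TNF array and its lowest control nearly coincided, at 7.3903 and 7.3973, so no fall is read there. How many of all genes tested lay on opposite sides was not counted. The fitted difference was -0.54 (limma adjusted p = 0.930).

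A probe set shared by C2 and CFB was outside the main measurement because it carries 2 symbols. It read 3.66 on the U-CH1 TNF array against 3.14 to 3.54 on the controls, and 5.20 on the MUG-Chor1 TNF array against 4.32, 4.66 and 5.13 on controls 1, 2 and 3. Both TNF arrays lay above their controls, by less than CFB's own probe set did, and this probe set was not tested. Another probe set, shared by C11orf91 and CD59, was outside the main measurement for the same reason and was not tested either. On the U-CH1 TNF array it read 4.43 against 4.04 to 4.24 on the controls. In MUG-Chor1 it read 4.64 with TNF, below controls 1, 2 and 3 at 5.05, 5.21 and 4.70.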

How the results depend on the processing

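CFB kept its rise and its call across both lines in all 19 alternatives (log2 1.94 to 2.17), and CD59, SERPING1 and C3 kept their line difference in all 18. Some alternatives, counted here and below, could hardly change a member. Each member had 1 probe set, so the choice of probe set left its values unchanged. The threshold of 0.10 could not remove a call. The fit of the controls alone called 3209 genes between control lines, the same number as the main fit. Of 40 member effects, 22 kept direction and side of the threshold throughout; of 680 values, 5 lost and 8 gained a call and 21 reversed, all 21 on effects that had not passed. Members called across both lines numbered 1 and became 2 in the group-mean model (C1S added); in U-CH1 they numbered 1 and became 2 at adjusted p under 0.10, with array weights or with trend and robust variance (C1S added). Leaving out 1 array gave 1 to 2 members across both lines, 0 to 3 in U-CH1, 0 to 2 in MUG-Chor1 and 3 to 4 between control lines. Reversed without passing were CD55 between control lines (-0.050 with array weights, -0.034 with quantile normalization, -0.17 to 0.17 leaving out arrays), the difference of the TNF effects for CD55 (0.061, 0.020, and -0.16 to 0.18) and for CFI (0.15 with array weights, -0.76 to 0.58 leaving out arrays), and CD59 in MUG-Chor1 (-0.043 with quantile normalization, -0.13 to 0.15 leaving out arrays). Leaving out arrays also reversed, without a call, the line difference of C3 (-1.41 to 0.36) and CFB (-0.21 to 0.29) in the TNF effect, CFB between control lines (-0.44 to 0.057), CFI in MUG-Chor1 (-1.27 to 0.075), and CD46 (-0.14 to 0.40) and SERPING1 (-0.91 to 0.11) across both lines, the last pair when 1 TNF array alone remained.

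Counts over all genes also moved. Across both lines 422 became 739 in the group-mean model, 815 at adjusted p under 0.10 and 199 to 489 leaving out arrays. In U-CH1 216 became 386 at 0.10 and 104 to 329 leaving out arrays; in MUG-Chor1 489 became 741, 765 with array weights and 284 to 664. For the difference 90 became 151 and 38 to 152, and between control lines 3209 became 1816 with a 2-fold threshold and 2123 to 3090. Beyond the construction of these settings the cause was not tested. With the replicate number as a block, 4 members and 3248 genes were called between control lines. Same-numbered controls correlated at 0.04, -0.06 and 0.16, and differently numbered ones at -0.15 to 0.14. With 3 controls a line these values cannot decide whether the numbers pair the lines, which the labels do not state. Filters left all 8 members in every setting, and CFI would not pass without MUG-Chor1 control 3. The alternatives for the complement genes that are not members (ITGAM, ITGB2, C5, C1QBP, C5AR1, MASP1 and CLU), for the member medians and for the markers CD68, KDR and SERPINA1 were added after seeing the data.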
